A study of Mus musculus with 15 samples.

Results

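Glycolysis and lactate export were followed through 10 genes: the glucose transporter Slc2a1, the enzymes Hk2, Gpi1, Aldoa, Tpi1, Pgk1, Eno1, Pkm and Ldha, and the lactate exporter Slc16a3. Of these, 8 had a value and 2 did not, because the platform annotation used here lists no probe set for Gpi1 or Eno1. The 8 were drawn from 13513 genes with a value. Each of them was represented by 1 probe set and was compared in 3 kinds of mouse heart cells on 15 arrays.

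Glycolysis splits glucose into pyruvate in the cytosol and yields ATP without oxygen. Lactate dehydrogenase then turns pyruvate into lactate, which regenerates the NAD+ that the pathway needs, and monocarboxylate transporters carry the lactate out with a proton. Many of these genes are known targets of the hypoxia-inducible factors, and cells of injured or dividing tissue often raise them together.

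All animals were wild-type C57BL/6 mice aged 8 to 12 weeks, with 5 arrays in each of 3 groups. CF are cardiac fibroblasts from unstressed hearts. The aCF are activated fibroblasts obtained from ventricles 5 days after an infarction was induced, and the EpiSC are stromal cells of the epicardium, the outer layer of the heart, collected from infarcted hearts on that same day in one procedure with the aCF. The EpiSC came off the heart surface under collagenase and shear, whereas CF and aCF were strained from digested ventricles, so cell type and isolation cannot be told apart in any comparison with EpiSC. No sham-operated group is named, so for aCF and EpiSC against CF the procedure and the infarction cannot be told apart either. In these bulk fractions more cells of a type and more RNA per cell cannot be told apart.

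Every value is a log2 difference from the probe set's own median across the arrays, and it carries no absolute level. Which gene a row belongs to was inferred: the values of an identifier were read 6900 rows further down (and 3 more for chromosomes 10 and 11, which concerns Slc16a3), and no source states such a shift. Of marker lists that hold none of the 8 genes, 10 heart muscle genes had a mean pairwise correlation of 0.423 in their deviations from the group means at the displaced rows. That correlation was -0.0353 in the table as deposited, and -0.0298 and -0.0272 with the displacement 1 row shorter or longer. For 9 fibroblast genes the same 4 values were 0.41, 0.0913, 0.086 and -0.0216. Displaced and as deposited, the correlation was 0.257 and -0.0326 for 8 pericyte and smooth muscle genes, 0.192 and -0.0771 for 7 endothelial genes, and 0.0905 and 0.0632 for 9 macrophage genes, a list that hardly separates these pairings. For Slc16a3, the correlation with the mean of the other 7 genes over the 15 arrays was 0.983 with the 3 more rows, 0.921 with 1 more, 0.824 with 0 more and -0.287 with 4 more. Neighbouring rows thus also correlated with the other genes, and the row of Slc16a3 is less certain for it.

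The arrays separated by group along the first principal component, which held 51.3% of the variance. Correlations between arrays were 0.743 to 0.845 within CF, 0.551 to 0.671 within EpiSC and 0.213 to 0.54 within aCF. They were taken from the centred values, and aCF lay between the other groups on the first component. The correlations therefore cannot rank the groups by how closely their arrays repeat. By the median SD over all rows, aCF (0.159) spread less than EpiSC (0.175) and more than CF (0.132). The arrays aCF4 and aCF5 lay nearest to EpiSC on that component among the aCF arrays, and results that involve aCF are therefore also given without them. As a check of the labelled cell type, 6 epicardial and mesothelial markers with a value were read. Of these, 5 were higher in EpiSC than in aCF with a Benjamini-Hochberg adjusted p under 0.05, where 4.61% of all rows were higher. Among the 5 were Wt1 (log2 difference 2.01) and Upk3b (2.82), while Tbx18 did not pass (0.10, adjusted p = 0.757). The list was chosen with earlier results of these data known.

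All 8 genes were highest in EpiSC. In each of them the 5 EpiSC arrays lay above all 5 aCF arrays and above all 5 CF arrays, an arrangement found in 5.18% of all rows for EpiSC over aCF and in 11.6% for EpiSC over CF. The differences from aCF ran from 0.54 (Aldoa) to 1.29 (Hk2) on the log2 scale with a median of 0.84, against a median of 0.01 over all rows. Differences from CF ran from 0.40 (Aldoa) to 1.73 (Slc16a3), with a median of 1.31 against -0.008 over all rows. Between aCF and CF the differences ran from -0.15 (Aldoa) to 0.61 (Pgk1). Of the 8 genes, 7 lay above 0, with a median of 0.45 against -0.02 over all rows.

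In limma's moderated test with the Bonferroni adjustment over 22206 rows that the study's design names, 2 of the 8 rose in EpiSC against aCF (Slc16a3 and Tpi1), where 0.401% of all rows were called higher. Against CF, 6 of the 8 rose in EpiSC (Slc2a1, Tpi1, Pgk1, Pkm, Ldha and Slc16a3), with 1.97% of rows called higher. In aCF against CF 0 of the 8 passed, with 1.21% of rows called higher. There, 6 of the 8 had an unadjusted p under 0.05, of which 5 lay higher and 1, Aldoa, lower. The share of all rows with an unadjusted p under 0.05 was not counted, so nothing is read from that number. At a Benjamini-Hochberg (BH) adjusted p under 0.05 over the same rows, 8 of 8 were higher in EpiSC than in aCF (4.61% of all rows), 8 of 8 higher in EpiSC than in CF (14.5%) and 5 of 8 higher in aCF than in CF (8.74%). The Bonferroni threshold is the stricter of the pair, and both are given below. EpiSC against aCF shares its arrays with the other comparisons, so the 3 sets of values are not independent of each other.

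**Figure D1:**
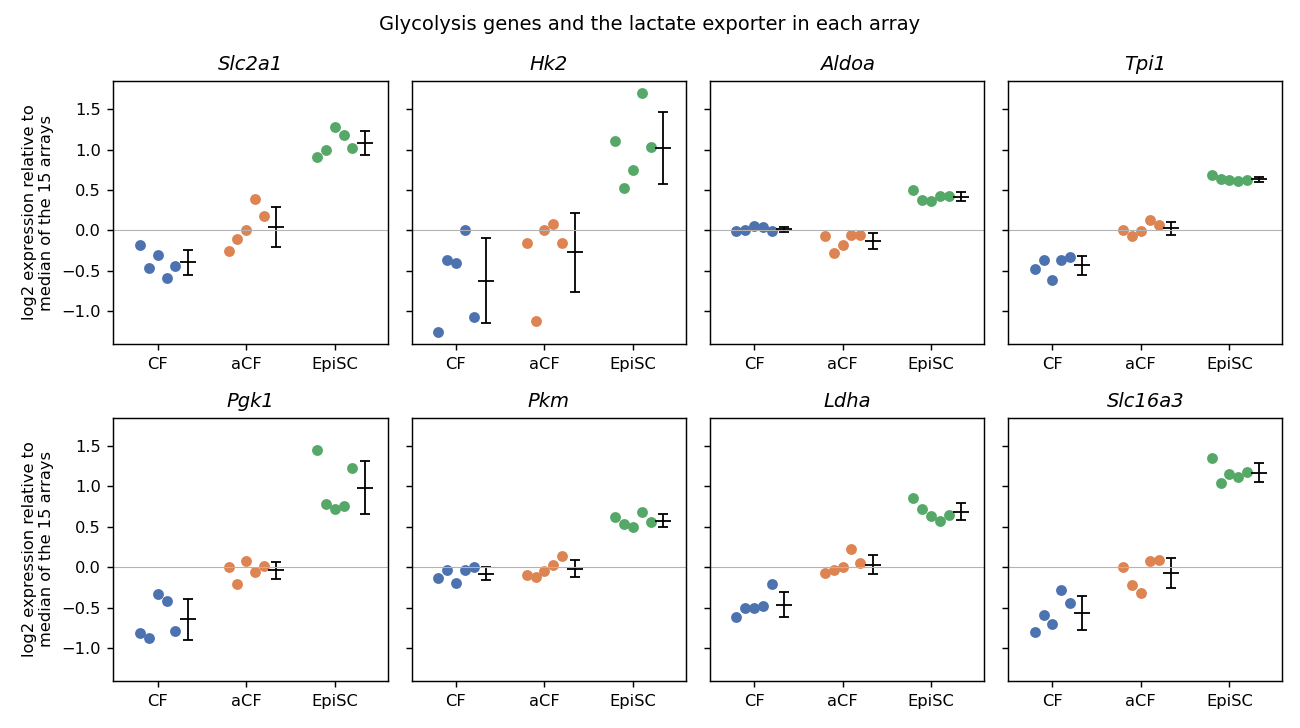
Each point is 1 array (y axis: log2 expression centred on the median array), grouped as CF, aCF and EpiSC, with the group mean and SD in black beside the 5 points. In all 8 panels the EpiSC points sit above every CF and aCF point, and for Aldoa and Pkm the CF and aCF points lie close together.

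Slc2a1 (chr4:119108745-119137330, RefSeq gene span in GRCm38.p6 as for the genes below) encodes GLUT1, the transporter that brings glucose into most cells. It stood at -0.18, -0.47, -0.30, -0.59 and -0.44 in CF1 to CF5, at -0.25, -0.11, 0.00, 0.39 and 0.18 in aCF1 to aCF5, and at 0.91, 1.00, 1.28, 1.18 and 1.02 in EpiSC1 to EpiSC5. Thus EpiSC separated from both fibroblast groups, while aCF1 lay within the CF range and the other aCF arrays above it. EpiSC exceeded CF 2.78-fold (95% confidence interval 2.40 to 3.22; Bonferroni-adjusted p = 0.000443) and aCF 2.05-fold (1.69 to 2.48; Bonferroni-adjusted p = 0.151, BH-adjusted p = 0.000661). The difference of aCF from CF was 0.44 ± 0.12 (SE, n = 5 arrays per group; BH-adjusted p = 0.0321). That last call was the least firm of the 5: it was lost without any one of aCF3, aCF4, aCF5, CF2, CF3, CF4 or CF5, and without aCF4 and aCF5 together the difference was 0.28 (BH-adjusted p = 0.138). Without aCF4 alone, by contrast, the EpiSC difference from aCF passed Bonferroni (1.12, adjusted p = 0.0496).

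Hk2 (chr6:82725025-82774454) encodes hexokinase 2, which phosphorylates glucose and so keeps it in the cell. It had the largest spread of the 8 genes in every group, with an SD of 0.526 in CF, 0.486 in aCF and 0.442 in EpiSC, where the median SD over all rows was 0.132, 0.159 and 0.175. Its values were -1.26, -0.37, -0.40, 0.00 and -1.07 in CF1 to CF5, -0.15, -1.12, 0.00, 0.08 and -0.16 in aCF1 to aCF5, and 1.10, 0.53, 0.75, 1.70 and 1.03 in EpiSC1 to EpiSC5. CF and aCF overlapped throughout, and aCF2 lay far below the other aCF arrays. EpiSC exceeded aCF 2.45-fold (1.63 to 3.67; Bonferroni-adjusted p = 1, BH-adjusted p = 0.0121) and CF 3.12-fold (2.05 to 4.76; Bonferroni-adjusted p = 1, BH-adjusted p = 0.0013). The interval of the aCF to CF difference, -0.28 to 0.98 on the log2 scale, included 0.

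Aldoa (chr7:126795234-126800994) encodes aldolase A, which splits fructose 1,6-bisphosphate into triose phosphates. It showed the smallest EpiSC differences: 0.54 ± 0.06 over aCF (Bonferroni-adjusted p = 0.13, BH-adjusted p = 0.000601) and 0.40 ± 0.05 over CF (Bonferroni-adjusted p = 0.228, BH-adjusted p = 0.000225). The CF arrays were nearly flat, at -0.01, 0.00, 0.06, 0.04 and -0.01, and the aCF arrays lay at -0.07, -0.28, -0.18, -0.06 and -0.06, all below them. EpiSC1 to EpiSC5 reached 0.50, 0.37, 0.36, 0.42 and 0.42. The aCF difference from CF was -0.15 ± 0.06 and did not pass (BH-adjusted p = 0.114), although the groups did not overlap, as in 6.84% of all rows with aCF the lower.

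Tpi1 (chr6:124810586-124814158) encodes triose phosphate isomerase, which converts one triose phosphate into the form that continues down the pathway. It was the tightest of the 8 within EpiSC, at 0.68, 0.63, 0.62, 0.61 and 0.62 (SD 0.0278). CF1 to CF5 stood at -0.48, -0.37, -0.61, -0.37 and -0.33 and aCF1 to aCF5 at 0.00, -0.07, -0.01, 0.13 and 0.07, so the 3 groups formed separate bands with aCF in the middle. EpiSC rose 2.09-fold over CF (1.90 to 2.30; Bonferroni-adjusted p = 0.000178) and 1.52-fold over aCF (1.40 to 1.66; Bonferroni-adjusted p = 0.014). The latter call held in 1 of 10 omissions of a single array, that of aCF4, and was lost with any other (p up to 0.0951). It was also lost without aCF4 and aCF5 together (adjusted p = 0.0935). A further quantile normalization of the centred values ended it too (adjusted p = 0.0758), while the difference stayed between 0.58 and 0.66. aCF exceeded CF by 0.46 ± 0.07 (BH-adjusted p = 0.00118).

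Pgk1 (chrX:106187100-106203699) encodes phosphoglycerate kinase 1, which carries out the first ATP-yielding step. Its EpiSC arrays fell into a lower set at 0.78, 0.72 and 0.75 (EpiSC2 to EpiSC4) and higher values of 1.45 and 1.22 (EpiSC1 and EpiSC5). The aCF arrays gathered near 0, at 0.00, -0.21, 0.07, -0.06 and 0.01, and the CF arrays lay below all of them, at -0.81, -0.88, -0.33, -0.42 and -0.79. EpiSC was 3.10-fold above CF (2.39 to 4.02; Bonferroni-adjusted p = 0.0405), a call that was lost in each of 10 omissions of 1 array, be it EpiSC1 to EpiSC5 or CF1 to CF5 (adjusted p = 0.0572 to 0.238). Over aCF the difference was 2.03-fold (1.62 to 2.54; Bonferroni-adjusted p = 0.686, BH-adjusted p = 0.00175). aCF exceeded CF by 0.61 ± 0.11, the largest such difference of the 8 (BH-adjusted p = 0.00443).

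Pkm (chr9:59656576-59679372) encodes the muscle-type pyruvate kinase, which makes pyruvate, and its splice forms M1 and M2 are not separated by a gene-level value. CF (-0.13, -0.04, -0.20, -0.03 and 0.00) and aCF (-0.10, -0.12, -0.05, 0.03 and 0.14) overlapped, with aCF4 and aCF5 above every CF array. EpiSC reached 0.62, 0.53, 0.49, 0.68 and 0.56. EpiSC was 1.58-fold above CF (1.43 to 1.73; Bonferroni-adjusted p = 0.0155), which passed in 1 of 10 omissions, that of EpiSC3, and missed the threshold without any other EpiSC or CF array (p up to 0.101). Over aCF the difference was 0.60 ± 0.07 (Bonferroni-adjusted p = 0.113, BH-adjusted p = 0.000554). The aCF difference from CF was 0.06, with an interval of -0.09 to 0.21, and its sign turned without aCF4 and aCF5 (-0.01).

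Ldha (chr7:46842274-46855627) encodes the A subunit of lactate dehydrogenase, which favours the step from pyruvate to lactate. It stood at -0.62, -0.51, -0.51, -0.48 and -0.21 in CF1 to CF5, at -0.07, -0.04, 0.00, 0.22 and 0.05 in aCF1 to aCF5, and at 0.85, 0.72, 0.63, 0.57 and 0.65 in EpiSC1 to EpiSC5. No group overlapped another. EpiSC was 2.22-fold above CF (1.95 to 2.53; Bonferroni-adjusted p = 0.00157) and 1.57-fold above aCF (1.40 to 1.77; Bonferroni-adjusted p = 0.137, BH-adjusted p = 0.000622). aCF exceeded CF by 0.50 ± 0.09 (BH-adjusted p = 0.00263).

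Slc16a3 (chr11:120948484-120959000) encodes MCT4, the monocarboxylate transporter known from cells that export lactate. It had the largest EpiSC difference from CF of the 8 genes. The CF arrays stood at -0.80, -0.59, -0.71, -0.28 and -0.44, the aCF arrays at 0.00, -0.22, -0.32, 0.08 and 0.09, and the EpiSC arrays at 1.35, 1.04, 1.15, 1.12 and 1.18. CF4 reached above aCF3, and EpiSC lay clear of both groups. EpiSC rose 3.32-fold over CF (2.83 to 3.89; Bonferroni-adjusted p = 0.00018) and 2.37-fold over aCF (2.04 to 2.75; Bonferroni-adjusted p = 0.00294). The call over aCF held in 10 of 10 omissions of 1 array (p up to 0.021) and without aCF4 and aCF5 (1.35, adjusted p = 0.0178). The call over aCF missed the threshold after a further quantile normalization of the centred values (1.14, adjusted p = 0.0532). Without the 3 more rows the differences would be 0.28 from aCF and 0.69 from CF, neither past Bonferroni. aCF exceeded CF by 0.49 ± 0.12 (BH-adjusted p = 0.0152), a call lost without aCF4 and aCF5 (0.38, adjusted p = 0.101).

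**Figure D2:**
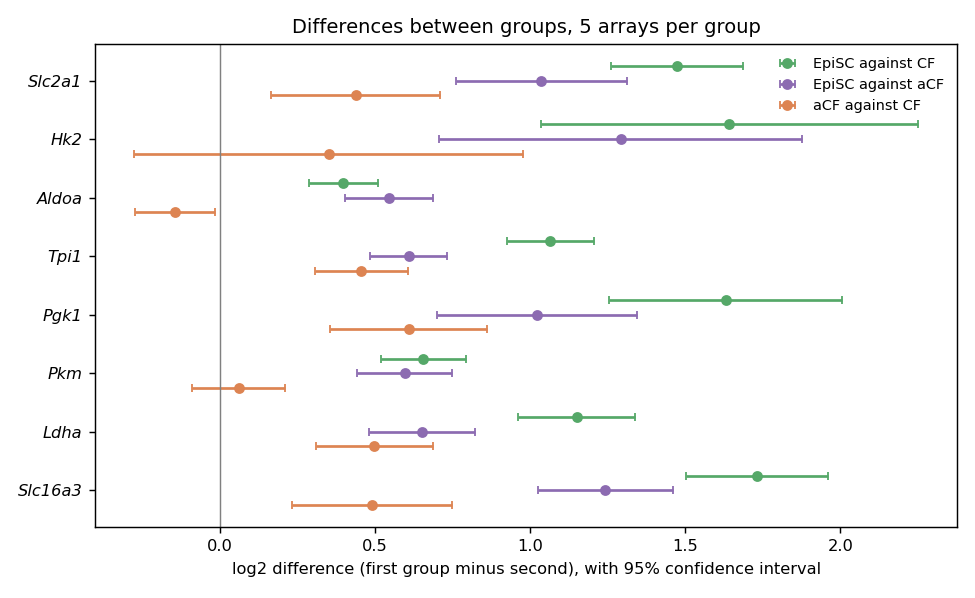
Points are log2 differences between groups (x axis) with 95% confidence intervals from limma, 5 arrays per group, for each of the 8 genes. The intervals of both EpiSC comparisons exclude 0 for all 8 genes, while those of aCF against CF include 0 for Hk2 and Pkm and lie below it for Aldoa.

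The place of aCF between the other groups is described below as shares of group means. They carry no interval, and whether these shares differ between genes was not tested. For Hk2, Pkm and Aldoa the aCF difference from CF did not pass Benjamini-Hochberg. The aCF difference from CF amounted to 43.3% of the EpiSC difference from CF for Ldha, 42.9% for Tpi1, 37.3% for Pgk1, 29.7% for Slc2a1, 28.3% for Slc16a3, 21.3% for Hk2 and 9.15% for Pkm, and was of opposite sign for Aldoa (-36.7%). Calculated from aCF1, aCF2 and aCF3 alone, these shares were 37.3%, 38.1%, 36.8%, 18.7%, 22.2%, 12.0%, -1.52% and -48.4%. Thus Ldha, Tpi1 and Pgk1 kept most of their share without aCF4 and aCF5, and Slc2a1, Hk2 and Pkm less of it. Of the 8 genes, 3 had non-overlapping aCF and CF arrays with aCF higher (Tpi1, Pgk1 and Ldha; 7.88% of all rows). At the Benjamini-Hochberg threshold these 3 were also the genes still called without aCF4 and aCF5.

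Averaged over the 8 genes, the arrays ranged from -0.54 to -0.27 in CF, from -0.27 to 0.10 in aCF and from 0.70 to 0.93 in EpiSC. The highest aCF means were those of aCF4 (0.10) and aCF5 (0.04). Over the 15 arrays the 28 pairs of genes had correlations of 0.732 to 0.984, with a median of 0.896. All pairs share the same arrays and the same group differences. After subtracting the group means the median correlation was 0.333, ranging from -0.297 (Slc2a1 and Pgk1) to 0.733 (Tpi1 and Pkm). Tpi1 and Slc16a3 (0.709), Tpi1 and Ldha (0.652) and Hk2 and Aldoa (0.633) also varied together within groups, and Slc2a1 had its highest such correlation at 0.152, with Pkm.

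Promoter windows are shown because all 8 genes were highest in EpiSC and several are known targets of hypoxia-inducible factors, whose binding core is a short motif. Whether these factors had a part in the differences was not tested. The letters ACGTG and GCGTG were searched on both strands in the 250 bases before the most upstream transcription start in the promoter table used, made from RefSeq (GRCm38.p6). For Aldoa, Ldha and Slc16a3 that start lies inside the gene span given above, and the sequence before the upstream end of the span was not searched. A CACGTG matches ACGTG on both strands. At least 1 match stood in 5 of the 8 windows (Slc2a1, Hk2, Pgk1, Ldha and Slc16a3), each of which held 2 or more. Over the 27025 genes listed, 38.6% of windows held a match and 16.8% held 2 or more. Aldoa, Tpi1 and Pkm held 0 in this window, although starts listed further downstream held matches for Aldoa (2 of its 3 starts) and Pkm (1 of its 2). A match is a description of letters and not a bound site. Printed 5′ to 3′ on the strand of the gene, with the matched bases in capitals, the 5 windows with a match were chr4:119108495-119108744 (plus strand) for Slc2a1, chr6:82774455-82774704 (minus) for Hk2, chrX:106186850-106187099 (plus) for Pgk1, chr7:46845554-46845803 (plus) for Ldha and chr11:120948817-120949066 (plus) for Slc16a3.
Slc2a1: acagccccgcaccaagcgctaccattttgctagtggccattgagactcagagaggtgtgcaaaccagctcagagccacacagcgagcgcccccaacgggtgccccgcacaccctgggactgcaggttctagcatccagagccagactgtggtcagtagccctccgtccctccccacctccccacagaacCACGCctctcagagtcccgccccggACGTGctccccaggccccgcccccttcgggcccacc
Hk2: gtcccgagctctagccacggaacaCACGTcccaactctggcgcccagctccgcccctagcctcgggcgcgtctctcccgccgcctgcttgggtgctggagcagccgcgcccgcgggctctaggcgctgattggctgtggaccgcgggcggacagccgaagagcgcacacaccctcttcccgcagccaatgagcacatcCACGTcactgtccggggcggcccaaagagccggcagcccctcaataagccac
Pgk1: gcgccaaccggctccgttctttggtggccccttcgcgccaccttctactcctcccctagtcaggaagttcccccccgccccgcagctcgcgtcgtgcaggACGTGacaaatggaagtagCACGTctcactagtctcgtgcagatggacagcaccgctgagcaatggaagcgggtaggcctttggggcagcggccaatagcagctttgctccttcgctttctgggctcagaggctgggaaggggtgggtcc
Ldha: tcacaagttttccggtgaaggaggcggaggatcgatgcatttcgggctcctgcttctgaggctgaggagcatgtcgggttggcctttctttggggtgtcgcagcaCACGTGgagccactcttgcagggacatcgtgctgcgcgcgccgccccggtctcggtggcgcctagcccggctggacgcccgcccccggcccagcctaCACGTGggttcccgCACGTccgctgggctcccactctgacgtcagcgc
Slc16a3: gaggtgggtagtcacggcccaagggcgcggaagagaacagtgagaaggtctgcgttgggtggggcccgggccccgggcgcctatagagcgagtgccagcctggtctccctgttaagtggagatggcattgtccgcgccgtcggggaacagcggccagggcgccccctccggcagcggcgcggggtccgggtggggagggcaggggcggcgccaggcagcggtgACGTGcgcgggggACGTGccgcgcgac

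The matches nearest to the start lay 36 bases before it in Slc2a1, 52 in Hk2, 131 in Pgk1, 34 in Ldha and 14 in Slc16a3, counted to the first matched base. Ldha had the most, 5 matches, of which 4 come from its pair of CACGTG runs.

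The other steps of the pathway were read from a list of 93 genes, of which 60 had a value, 52 of them outside the 8. At the Benjamini-Hochberg threshold 5 of the 52 were higher and 2 lower in EpiSC than in aCF, where 4.61% of all rows were higher and 5.01% lower. Against CF, 17 were higher and 6 lower in EpiSC (14.5% and 17.7% of rows), and 6 were higher and 3 lower in aCF (8.74% and 9.38%). With Bonferroni, 0 passed in EpiSC against aCF, where 7 passed with Benjamini-Hochberg and 14 had an unadjusted p under 0.05. For the unadjusted p no share of all rows was counted here either. Gapdh and Pdk3 passed Bonferroni as higher in EpiSC than in CF, and Pdk3 as higher in aCF than in CF. The median difference of the 52 was 0.11 in EpiSC against aCF, 0.20 in EpiSC against CF and 0.01 in aCF against CF, well under that of the 8 genes.

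Gapdh, the dehydrogenase between Tpi1 and Pgk1 in the pathway, had the same order of groups as its neighbours: -0.20, -0.38, -0.36, -0.27 and -0.23 in CF, -0.07, -0.06, 0.01, 0.00 and 0.01 in aCF, and 0.45, 0.56, 0.42, 0.45 and 0.42 in EpiSC. None of its groups overlapped. It rose by 0.75 ± 0.06 in EpiSC over CF (Bonferroni-adjusted p = 0.0024) and differed by 0.48 ± 0.05 from aCF (Bonferroni-adjusted p = 0.0788, BH-adjusted p = 0.000451). It is often used as a reference gene in PCR. Pfkl, the liver-type subunit of phosphofructokinase, was 0.95 ± 0.13 higher in EpiSC than in CF (BH-adjusted p = 0.000421) and 0.50 ± 0.14 from aCF, which did not pass (adjusted p = 0.0535). Pgam1 had no value here.

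Other genes of the same steps went in both directions. Hk1, the hexokinase common to most tissues, was lower in EpiSC than in CF (-1.30 ± 0.27, BH-adjusted p = 0.00417), the opposite direction to Hk2. Its values were 0.35, 1.12, 0.51, 0.00 and 0.94 in CF, 0.35, 0.36, -0.29, -0.69 and -0.59 in aCF, and -0.57, -0.86, -1.12, -1.09 and 0.06 in EpiSC. EpiSC5 thus lay within the CF range, and aCF3, aCF4 and aCF5 within the EpiSC range. The neuronal-type glucose transporter Slc2a3 differed by 0.14 ± 0.45 between EpiSC and aCF (BH-adjusted p = 0.89). With BH, 0 of the 4 glucose transporters other than Slc2a1 passed in any comparison. Of all rows, 4.61% were higher and 5.01% lower in EpiSC against aCF. These shares were 8.74% and 9.38% in aCF against CF, and 14.5% and 17.7% in EpiSC against CF. With only 4 genes, nothing is read from that 0. Aldoc, another aldolase, was 0.41 ± 0.11 higher in EpiSC than in CF (BH-adjusted p = 0.016) and did not pass against aCF (0.36, adjusted p = 0.181). Eno3, the muscle enolase, was 0.40 ± 0.07 higher in EpiSC than in CF (BH-adjusted p = 0.0022) with no overlap of the arrays, and differed by 0.32 ± 0.10 from aCF, which did not pass (BH-adjusted p = 0.0681). The muscle enzyme Pgam2 was lower in EpiSC than in aCF (-0.88 ± 0.16, BH-adjusted p = 0.00577).

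Besides Ldha and Slc16a3, 6 genes for lactate formation and transport had a value. With Benjamini-Hochberg 0 of the 6 passed in EpiSC against aCF, where 4.61% of all rows were higher and 5.01% lower, so 0 is near that share. Against CF, 2 of the 6 were higher and 1 lower in EpiSC (14.5% and 17.7% of all rows). Ldhb, whose subunit favours the reverse reaction, differed by 0.46 ± 0.23 between EpiSC and aCF (BH-adjusted p = 0.257). Slc16a1, encoding MCT1, was 0.58 ± 0.19 higher in EpiSC than in CF (BH-adjusted p = 0.0369) and 0.28 from aCF (adjusted p = 0.371). The chaperone of both transporters, Bsg, was higher in aCF (0.28 ± 0.05, BH-adjusted p = 0.00263) and in EpiSC (0.20 ± 0.06, adjusted p = 0.0192) than in CF. Slc16a7, encoding MCT2, was lower than in CF in both infarct groups, by -0.90 ± 0.24 in aCF (BH-adjusted p = 0.0253) and -0.99 ± 0.26 in EpiSC (adjusted p = 0.0143).

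At the entry of pyruvate into mitochondria, the kinase Pdk3, an inhibitor of pyruvate dehydrogenase, rose in both infarct groups. It stood at -0.90, -0.99, -1.06, -0.84 and -1.05 in CF, at 0.05, 0.00, 0.00, 0.50 and 0.26 in aCF, and at -0.04, 0.48, 0.30, 0.59 and 0.35 in EpiSC. The infarct groups overlapped each other and lay far above CF. The increase was 1.13 ± 0.10 in aCF (Bonferroni-adjusted p = 0.00887, lost without aCF5, CF2, CF3 or CF5 with p up to 0.0599) and 1.30 ± 0.11 in EpiSC (Bonferroni-adjusted p = 0.00562), and the infarct groups differed by 0.17 ± 0.14 (BH-adjusted p = 0.491). Pdk1 was higher in EpiSC than in CF (1.04 ± 0.28, BH-adjusted p = 0.0159) and Pdk4 lower (-0.63 ± 0.21, adjusted p = 0.0432), and Pdha1, which encodes a catalytic subunit of the dehydrogenase, differed by 0.03 between EpiSC and CF (BH-adjusted p = 0.883).

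**Figure D3:**
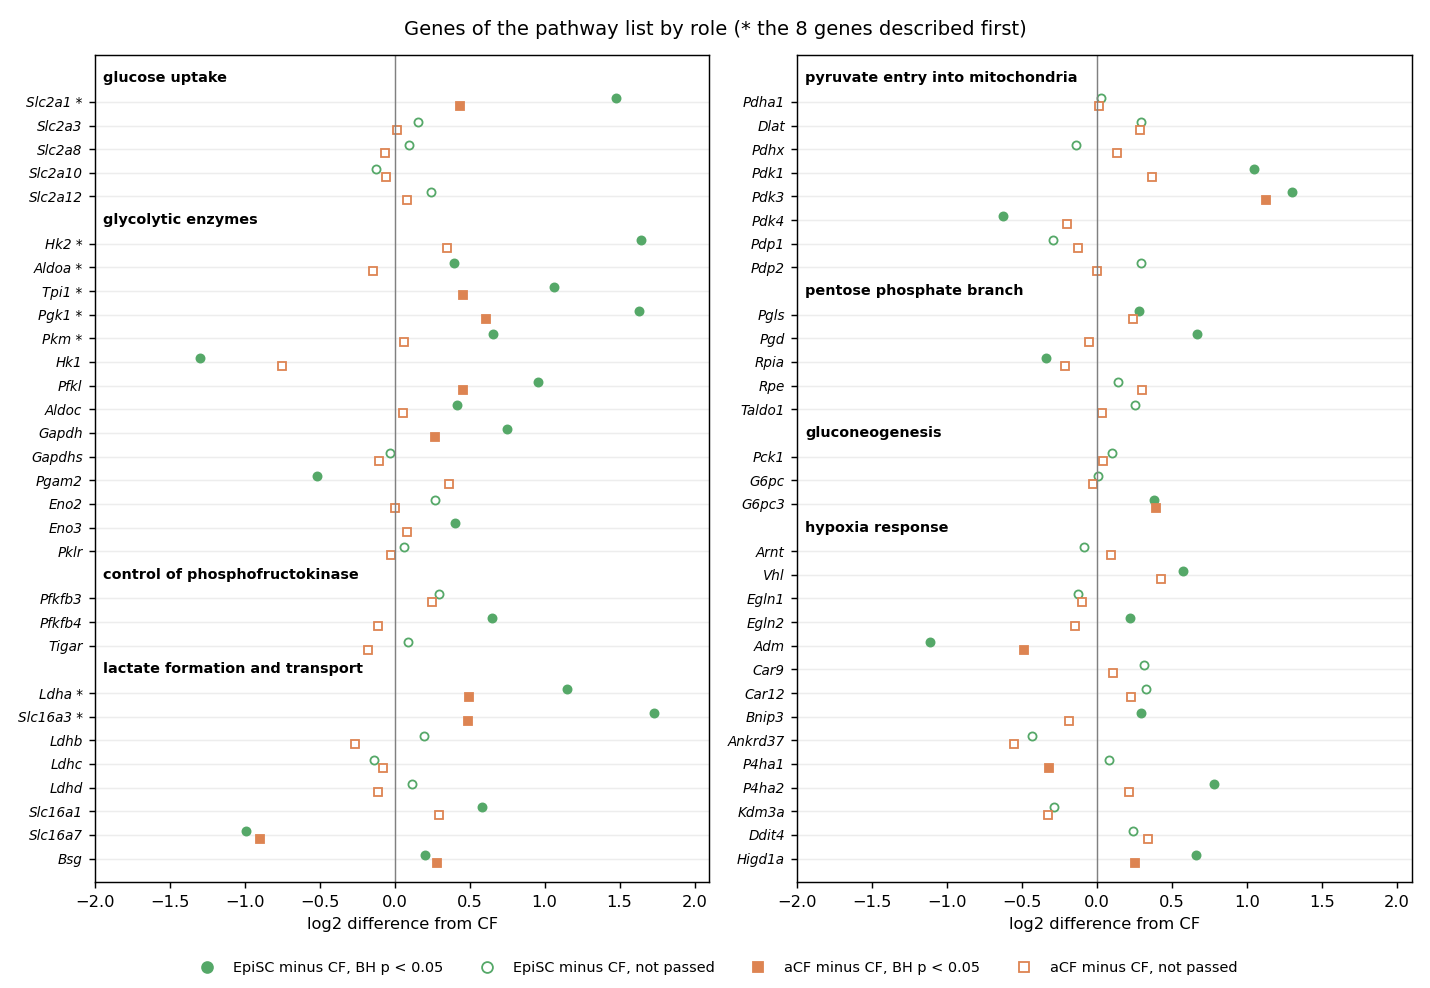
Each row is a gene of the pathway list, with its log2 difference from CF (x axis) for EpiSC (circles) and aCF (squares), filled where the Benjamini-Hochberg adjusted p was under 0.05, and stars mark the 8 glycolysis genes. The starred EpiSC circles all lie to the right of 0 and are filled, whereas genes of the other roles scatter to both sides.

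Of 16 hypoxia response genes outside the 8 with a value, 3 were higher and 1 lower in EpiSC than in aCF with Benjamini-Hochberg (4.61% and 5.01% of all rows), and 0 with Bonferroni. The higher ones were Pfkfb4 (0.76 ± 0.17, BH-adjusted p = 0.0186), which makes an activator of phosphofructokinase, the mitophagy gene Bnip3 (0.48 ± 0.08, adjusted p = 0.00513) and Higd1a (0.40 ± 0.08, adjusted p = 0.0117). Adm, the vasodilator adrenomedullin and a widely used hypoxia marker, was lower in EpiSC than in CF (-1.11 ± 0.17, BH-adjusted p = 0.000695) and than in aCF (-0.63 ± 0.17, adjusted p = 0.0427). Against CF, 6 of the 16 were higher and 1, Adm, lower in EpiSC (14.5% and 17.7% of all rows). The 6 were P4ha2, a collagen prolyl hydroxylase subunit (0.78 ± 0.21, BH-adjusted p = 0.0163), Higd1a (0.66 ± 0.08, BH-adjusted p = 0.000165), Pfkfb4 (0.65 ± 0.18, BH-adjusted p = 0.0215), Vhl, which marks hypoxia-inducible factors for degradation (0.58 ± 0.15, BH-adjusted p = 0.0166), Bnip3 (0.30 ± 0.06, BH-adjusted p = 0.0032) and the oxygen-sensing hydroxylase Egln2 (0.22 ± 0.07, BH-adjusted p = 0.0339). In aCF against CF, 1 was higher (Higd1a, 0.26 ± 0.06, BH-adjusted p = 0.018) and 2 were lower (Adm, -0.49 ± 0.11, BH-adjusted p = 0.0114, and P4ha1, -0.32 ± 0.10, BH-adjusted p = 0.0462), where 8.74% and 9.38% of all rows were called. In the pentose phosphate branch Pgd was higher in EpiSC than in aCF (0.72 ± 0.16, BH-adjusted p = 0.0206), 1 of 5 with a value. Against CF, Pgd (0.66 ± 0.16, BH-adjusted p = 0.00922) and Pgls (0.28 ± 0.08, BH-adjusted p = 0.0249) were higher in EpiSC and Rpia was lower (-0.34 ± 0.11, BH-adjusted p = 0.0426). The glucose-6-phosphatase G6pc3 was higher than in CF in aCF (0.39 ± 0.06, BH-adjusted p = 0.00109) and in EpiSC (0.38 ± 0.07, adjusted p = 0.00204).

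Among the 13453 named genes outside the pathway list, the 5 most like the mean of the 8 over the 15 arrays were the connexins Gjb5 (Pearson r = 0.987) and Gja1 (0.983), the plasminogen activator inhibitor Serpinb2 (0.978), the hyaluronan receptor Cd44 (0.977) and the nucleic acid sensor Zbp1 (0.977). These were picked for their likeness, so the correlations are a description. Each had the same order of group means. Gja1, for example, averaged -0.79 ± 0.14 (SD, n = 5) in CF, -0.06 ± 0.20 in aCF and 1.53 ± 0.15 in EpiSC, and Serpinb2 -0.90 ± 0.15, 0.09 ± 0.43 and 5.10 ± 0.43.

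Markers of other cells moved with the same groups. Heart muscle markers (10 of 14 with a value) averaged 0.25 to 0.50 over the CF arrays, -0.61 to 0.38 over aCF (aCF4 at -0.61 and aCF5 at -0.52, the other aCF arrays at 0.13 or more) and -0.88 to -0.48 over EpiSC, and 8 of the 10 were lower in EpiSC than in CF with Benjamini-Hochberg, where 17.7% of all rows were lower. Endothelial markers (7 of 10) ranged from 0.34 to 0.86 in CF, -0.17 to 0.55 in aCF and -1.04 to -0.85 in EpiSC, and pericyte and smooth muscle markers (8 of 10) from -0.85 to -0.08, 0.43 to 0.86 and -1.05 to -0.46. Macrophage markers (9 of 12) lay at -0.22 to 0.05 in CF, 0.12 to 0.45 in aCF and -0.22 to -0.01 in EpiSC. The pericyte and smooth muscle list was split: against CF, 5 of its 8 genes were lower in EpiSC with BH, while the contractile genes Cnn1 (3.06, Bonferroni-adjusted p = 0.0271) and Tagln (1.79, Bonferroni-adjusted p = 0.017) rose. Against aCF, 6 of the 8 were lower in EpiSC with BH, Tagln among them, and 0 higher.

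In some marker lists every EpiSC array lay above all CF and aCF arrays, as for the 8 genes. The epicardial list did so (6 of 10 with a value, at -1.23 to -0.37 in CF, -0.82 to 0.24 in aCF and 1.63 to 2.30 in EpiSC). So did the platelet list (3 of 5, at -0.07 to 0.13, -0.19 to -0.03 and 0.86 to 1.52). The single red cell gene with a value, Alas2, was the other case (1.43 over aCF, BH-adjusted p = 0.00314). The mean of the 52 other pathway genes was also highest in EpiSC (-0.07 to -0.02 in CF, -0.06 to 0.03 in aCF, 0.06 to 0.16 in EpiSC). Of the platelet genes Ppbp carried the difference (3.15 over aCF, Bonferroni-adjusted p = 0.00181), while Pf4 differed by 0.43 and Gp9 by 0.01, neither past Benjamini-Hochberg. Neutrophil markers (5 of 8) lay at -0.11 to 0.01, -0.07 to 0.07 and 0.03 to 0.40. Their array medians, -0.066, 0.004 and 0.164, were also highest in EpiSC, with overlap. With Benjamini-Hochberg 0 of the 5 passed in EpiSC against aCF, near the share of all rows (4.61% higher, 5.01% lower). Against CF, 1 of the 5, Mmp8, was higher in EpiSC (1.00, BH-adjusted p = 0.027) and in aCF (0.46, adjusted p = 0.00913), where 14.5% and 8.74% of all rows were higher. Lymphocyte markers (5 of 8) lay at -0.11 to 0.02, -0.06 to 0.09 and -0.04 to 0.17. Fibroblast markers (9 of 10) lay at -0.07 to 0.02, 0.04 to 0.14 and -0.45 to 0.03, a list that was also split in both comparisons with CF. Against CF with BH, 3 of the 9 were higher in EpiSC (Col1a1 0.94, Col1a2 0.91 and Col3a1 0.68). The other 6 were lower, among them Gsn (-1.92) and Tcf21 (-1.36), where 14.5% of all rows were higher and 17.7% lower. In aCF against CF 3 were higher and 3 lower (8.74% and 9.38% of all rows). In EpiSC against aCF the list was not split, with 0 of the 9 higher and 5 lower (4.61% and 5.01% of all rows). Col1a1 (-0.24), Col1a2 (-0.36) and Col3a1 (-0.39) were among those 5. The part of these other cells in the glycolysis differences was not tested, and centred values do not show which markers are near 0 in level.

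**Figure D4:**
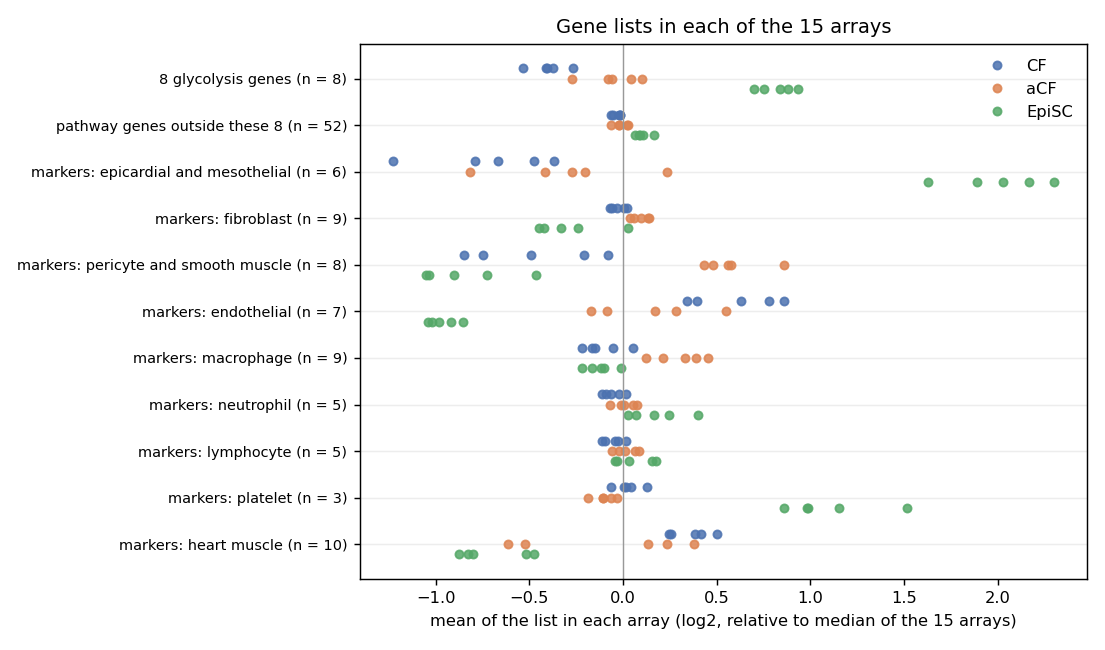
Each point is the mean of a gene list in 1 array (x axis: log2, centred on the median array), coloured by group. The 8 glycolysis genes, the 52 pathway genes outside these 8, and the epicardial and platelet lists have all EpiSC points to the right of the other groups. The endothelial list has all EpiSC points to the left.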

How the data were processed

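Arrays from Affymetrix measured total RNA of 15 samples, 5 in each group, which the labels call biological replicates. The authors deposited log2 values that, per the series' design text, came from GeneSpring GX 12.5 after quantile normalization, an RMA-type summary and a shift of each probe set to its median. Base 2 is inferred from that summary and from the range of -4.77 to 5.52. The authors' filter on dim probe sets needs raw signals and was not used here, and the number of arrays limits the precision.

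Identifiers were paired with values 6900 rows further down (3 more on chromosomes 10 and 11). This names 13538 of 22206 rows for 13513 genes through the platform annotation, in which 19572 probe sets have 1 symbol, 0 several and 2634 none. The first probe set of a gene by identifier was used.

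Each comparison took its own 2 groups in limma 3.58.1 (R 4.3.3; lmFit, eBayes; 2-sided; all 22206 rows), with Bonferroni adjustment as in the design text, Benjamini-Hochberg beside it and a threshold of 0.05. The script was tested on simulated data in which 200 of 22206 rows were changed by 1 on the log2 scale. Bonferroni recovered 50.5% of these in EpiSC against aCF, 56.5% in aCF against CF and 54.5% in EpiSC against CF. Benjamini-Hochberg recovered 81.0%, 85.0% and 83.5%. A miss with Bonferroni is therefore not read as absence of a difference. EpiSC against CF is not among the comparisons the design text names. Members and gene lists were chosen with earlier results of these data known. The genes named are those with a value among the 10, pathway genes past either threshold, genes of the same reactions and the 5 most similar genes; Pdha1 and the marker genes were named after their values were seen. Alternatives covered the adjustment, the samples in the fit, a further quantile normalization of the deposited values, the variance prior, array weights, a replicate block, omitted arrays and the row pairing.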

Additional observations from a re-analysis of the deposited data

Results flagged for a closer look

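Among 30 gene and group combinations examined (the 8 glycolysis genes, Gapdh and Pdk3 in 3 groups of 5 arrays), 3 had an array far from the rest by Dixon's ratio of the gap to the range, with a critical value of 0.71. Chance marks about 1 in 20 groups. Hk2 was lowest in aCF2 at -1.12, a gap of 0.8 of the group's range. Tpi1 was highest in EpiSC1 at 0.68 (0.714 of a narrow range), and Gapdh was highest in EpiSC2 at 0.56 (0.786).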

How the results depend on the processing

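The row pairing decides every named result. With identifiers as deposited, or shifted 1 row less or 1 row more, 0 of the 8 genes passed Bonferroni in EpiSC against aCF and 0 in EpiSC against CF. Of the 52 other pathway genes, 0 passed in EpiSC against CF as deposited, while 1 row less gave 2, 3 and 6 in EpiSC against aCF, aCF against CF and EpiSC against CF, and 1 row more gave 3 in aCF against CF. Log2 differences that changed sign as deposited were, for EpiSC against aCF, Slc2a1 -0.16, Hk2 -0.02, Aldoa -0.08, Tpi1 -0.47, Pgk1 -0.7 and Pdk3 -0.32. For aCF against CF they were Slc2a1 -0.14, Tpi1 -0.25, Pkm -0.01, Ldha -0.67 and Pdk3 -0.54, and for EpiSC against CF Slc2a1 -0.3, Aldoa -0.14, Tpi1 -0.72, Pgk1 -0.63 and Pdk3 -0.86. With 1 row less they were Pgk1 -0.32 and Pkm -0.17 (EpiSC against aCF), Aldoa 0.21, Tpi1 -0.05, Pkm -0.22, Ldha -0.004, Gapdh -0.05 and Pdk3 -0.4 (aCF against CF), and Pkm -0.39 and Gapdh -0.04 (EpiSC against CF). With 1 row more they were Ldha -0.06, Slc16a3 -0.11 and Pdk3 -0.26 (EpiSC against aCF), Hk2 -0.24, Aldoa 0.05, Pgk1 -0.02 and Ldha -0.08 (aCF against CF), and Hk2 -0.18, Pgk1 -0.01, Ldha -0.14, Slc16a3 -0.11 and Pdk3 -0.09 (EpiSC against CF).

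The rows called in EpiSC against aCF, aCF against CF and EpiSC against CF numbered 148, 340 and 647 with Bonferroni and 2135, 4023 and 7157 with Benjamini-Hochberg. The 8 genes gave 2, 0 and 6 calls with the former and 8, 5 and 8 with the latter, and the 52 others 0, 1 and 2 against 7, 9 and 23. One fit of all 3 groups gave 369 rows in EpiSC against aCF and 1060 in EpiSC against CF, with 6 of the 8 genes in EpiSC against aCF, 1 in aCF against CF, and 1 of the 52 in EpiSC against aCF. Testing rows with an identifier only also gave 1 of the 52 there. A further quantile normalization left 0 of the 8 in EpiSC against aCF. It was applied to deposited values already quantile normalized and centred per probe set, so it is not another normalization of the signals. Without aCF4 and aCF5 the rows called were 50 in EpiSC against aCF and 144 in aCF against CF (2535 with Benjamini-Hochberg), with 1 of the 8 genes in the former and 3 with Benjamini-Hochberg in the latter, and Pkm turned to -0.01 in aCF against CF. That omission was applied to the Benjamini-Hochberg counts after seeing the data. The cause of these changes was not tested.

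Leaving out 1 array at a time gave 73 to 143, 197 to 272 and 369 to 557 rows with Bonferroni, 1 to 3, 0 to 0 and 4 to 5 of the 8 genes, and 0 to 0, 0 to 1 and 2 to 3 of the 52. With Benjamini-Hochberg it gave 1515 to 2135, 3157 to 4224 and 5948 to 6894 rows, 8 to 8, 4 to 5 and 8 to 8 of the 8 genes, and 5 to 9, 7 to 13 and 18 to 23 of the 52. Robust variance estimation and array weights ended no call of the 10 genes followed (the 8, Gapdh and Pdk3).

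Replicate numbers are shared by the groups, but no label ties a number to a heart. Deviations of same-numbered arrays correlated between -0.022 and 0.156 over all comparisons. Between EpiSC and aCF, collected in one procedure, the values were 0.0848, 0.0244, 0.0386, 0.154 and 0.019 for numbers 1 to 5. The correlations were not above 0.1 in every pair, and the numbers were not used as pairs. Differently numbered arrays were not compared, so these values cannot decide whether equal numbers share a heart. With the replicate block, 41, 94 and 166 rows passed Bonferroni, with 0 of the 8 genes in EpiSC against aCF and in EpiSC against CF and 0 of the 52 in aCF against CF and in EpiSC against CF. With Benjamini-Hochberg the block gave 8, 4 and 8 of the 8 genes. The block leaves fewer residual degrees of freedom.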
